A study of Mus musculus with 6 samples.

Results

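The genes described here are 10 targets of the hypoxia-inducible factors (HIF), namely Car9, Vegfa, Slc2a1, Hk2, Pdk1, Bnip3, Egln3, Ankrd37, Ndrg1 and Adm, out of 54232 gene IDs counted in each library. They were selected on their CPM in DTA-1 and isotype libraries, already in view, among known targets of the pathway, so their levels and fold changes are given as a description and carry no test. All 10 passed the filter on low counts, as did 15763 genes in all.

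RNA came from the esophagus of mice that drank the carcinogen 4-nitroquinoline 1-oxide (4-NQO, 100 μg/ml) for 16 weeks from 8 weeks of age and plain water for a further 12 weeks, a schedule used to raise squamous tumors. The 3 DTA-1 libraries came from such mice injected with DTA-1, which activates GITR, a costimulatory receptor on T cells, and the 3 isotype libraries from such mice given a control antibody. Injections of 10 μg were made on a twice-weekly schedule over the last 2.5 weeks, so every library comes from carcinogen-treated tissue and none from mice without the carcinogen. The labels name no strain, do not tell whether libraries are separate mice, and describe the tissue as enriched for invading cells rather than as sorted cells.

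HIF is a transcription factor with an alpha subunit that is destroyed when oxygen is ample and a stable partner, ARNT. Prolyl hydroxylases mark the alpha subunit with the help of oxygen, and the VHL ubiquitin ligase then removes it. When oxygen falls, HIF binds a short core motif in its target genes, which encode proteins that bring in glucose, run glycolysis, hold pyruvate back from the mitochondria, regulate acid, and call in blood vessels. Many of these genes also have other regulators, and in an organ with both muscle and epithelium each can be set by tissue as well as by oxygen.

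Promoter sequence shows what these genes share by sequence. The HIF core motif was searched as ACGTG or GCGTG on both strands, in RefSeq windows of 300 bases (250 before and 50 after an annotated start, GRCm38.p6). A palindromic CACGTG counts once on each strand. Of the 10 genes 9 had a window, and Ndrg1 was not among them. The motif occurred in 9 of their 11 windows, and in 43.8% of the 32851 windows of the whole table. The ACGTG form occurred in 7 of the 11, and in 19.6% of all windows. One motif in each of 6 genes is shown because these genes stand for the different patterns described below. Each line is written on the strand of the gene with the motif in capitals; CACGT is the reverse complement of ACGTG.
Car9, chr4:43506998-43507022, plus strand: atttccgatgCACGTacagcccgtc
Slc2a1, chr4:119108699-119108723, plus strand: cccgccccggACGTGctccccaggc
Hk2, chr6:82774492-82774516, minus strand: tgagcacatcCACGTcactgtccgg
Pdk1, chr2:71873212-71873236, plus strand: gcctacggggGCGTGgttccagcga
Bnip3, chr7:138909600-138909624, minus strand: gcacgcgccgCACGTgccacacgct
Ankrd37, chr8:45999842-45999866, minus strand: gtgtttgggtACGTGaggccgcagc
Counted from the annotated start, these motifs begin at position -18 in Car9, -36 in Slc2a1, -52 in Hk2, -2 in Pdk1, -108 in Bnip3 and -6 in Ankrd37. Bnip3 had the most matches (5), Ankrd37 had 4, and Car9 and Egln3 had 1 each. The single start of Adm and 1 of the 2 starts of Pdk1 held the GCGTG form alone, and the other windows of Pdk1 and Vegfa, each at a different start of the gene, held no match. A match is a run of letters in a window and says nothing about binding.

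Values given in threes run through replicates 1, 2 and 3 of the group. The libraries held 23147873 to 29065162 counts, and 3 reads correspond to 0.108 to 0.141 CPM (reads scaled to library size, with sizes adjusted by TMM). No gene in the whole table passed edgeR's quasi-likelihood test of DTA-1 against isotype at a Benjamini-Hochberg adjusted p of 0.05 (0%), and 0.39 was the smallest value. That test put 2006 genes (12.7%) at an unadjusted p below 0.05, DESeq2 called 180 genes (1.12% of the 16084 it adjusted) and limma-voom 0. Leaving out DTA-1 replicate 1 raised the edgeR count to 601 and the DESeq2 count to 2449. Without isotype replicate 3 DESeq2 called 896. Calls of named genes in these refits, given below, are to be read beside these counts. Squamous epithelium and striated muscle were both present, with Krt5 at 1088 to 4941 CPM and Acta1 at 17704 to 54567 CPM over the 6 libraries. Summed tissue markers were compared between groups, and no gene of these lists passed edgeR. The 26 striated muscle genes took 14.9% to 19.6% of counts under DTA-1, against 7.65% to 13.9% under the isotype antibody. The 20 differentiated squamous genes took 0.571% to 2.0% under DTA-1, against 2.2% to 4.36% under the isotype antibody, although on TMM-scaled CPM their sums overlapped (6390.3 to 20654 under DTA-1, against 20474 to 42352 under the isotype antibody). The 14 basal squamous genes overlapped, at 0.361% to 1.19% under DTA-1, against 0.535% to 1.99% under the isotype antibody. In bulk tissue fewer cells of a type and less RNA per cell cannot be told apart.

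The 10 genes did not all lie on one side. Car9 was lower in every DTA-1 library, Hk2 and Pdk1 were higher in every DTA-1 library, and the other 7 overlapped between the groups. That is 1 gene of 10 below and 2 above, where 9.38% of all tested genes lay wholly below and 8.6% wholly above. Their median log2 fold change was 0.10, against -0.03 over all 15763 genes. With the genes chosen in view of these values, nothing is read from either share. Negative fold changes numbered 4 of 10, against 52.9% of all genes, and Car9 alone was at least 2-fold lower, beside 6.38% of all genes.

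**Figure D1:**
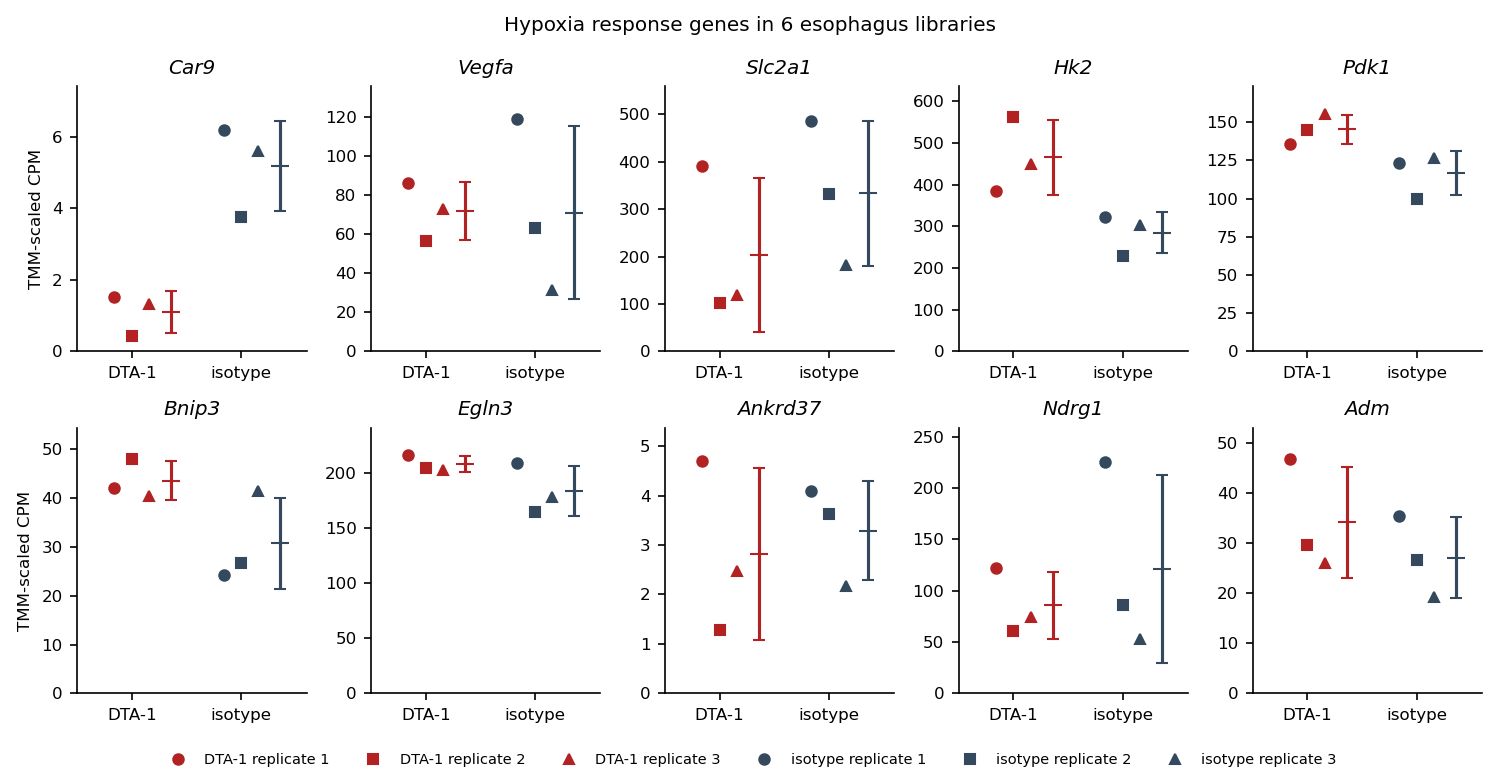
TMM-scaled CPM (y axis, linear, from 0) of each of the 10 hypoxia response genes in the 3 DTA-1 and 3 isotype libraries; symbols mark the replicate number, and the bar beside each group is the mean with its SD. Car9 separates the groups downward and Hk2 and Pdk1 upward, while Vegfa, Ndrg1, Slc2a1, Ankrd37 and Adm differ more among libraries of 1 group than between the group means.

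Car9 encodes carbonic anhydrase IX, a membrane enzyme that turns carbon dioxide into bicarbonate and acid at the cell surface, and it is a standard tissue marker of hypoxia in human tumors (ENSMUSG00000028463, chromosome 4, 43506966 to 43513729, GRCm38, plus strand). It had 1.52, 0.424 and 1.33 CPM under DTA-1, against 6.19, 3.77 and 5.59 CPM under the isotype antibody. The highest DTA-1 library lay well below the lowest isotype library. The raw reads were 35, 9 and 31 under DTA-1, against 168, 100 and 155 under the isotype antibody, so each value is above the floor of 3 reads. The means were 1.09 ± 0.586 CPM with DTA-1 and 5.19 ± 1.26 CPM with isotype (SD, n = 3 each), a 4.72-fold lower level (log2 fold change -2.24 ± 0.51, SE). The estimate lay between -2.55 and -1.86 when each library was left out in turn. On the opposite strand Gm12454 shares 214 exon bases with Car9 and had 4 to 20 reads per library, and the strand setting of the counting is not given in the sources used here.

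Slc2a1 encodes the glucose transporter GLUT1, which basal squamous cells carry at a high level (ENSMUSG00000028645, chromosome 4, 119108711 to 119137983, plus strand). It had 392, 101 and 119.6 CPM under DTA-1, against 487, 331 and 182 CPM under the isotype antibody. DTA-1 replicate 1 lay among the isotype libraries, while DTA-1 replicates 2 and 3 lay below all of them. The means were 204 ± 163 CPM with DTA-1 and 333 ± 152 CPM with isotype (SD, n = 3 each), with a log2 fold change of -0.71 ± 0.59 (SE). Leaving out DTA-1 replicate 1 gave -1.59, DTA-1 replicate 2 -0.38, DTA-1 replicate 3 -0.43 and isotype replicate 1 -0.32.

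Hk2 encodes hexokinase 2, which traps glucose in the cell as glucose-6-phosphate and is the main hexokinase of skeletal muscle (ENSMUSG00000000628, chromosome 6, 82725025 to 82774454, minus strand). It had 385, 562 and 449 CPM under DTA-1, against 322, 229 and 304 CPM under the isotype antibody. The groups did not overlap, and the lowest DTA-1 value exceeded the highest isotype value. The means were 465 ± 89.6 CPM with DTA-1 and 285 ± 49.8 CPM with isotype (SD, n = 3 each), a 1.63-fold higher level (log2 fold change 0.71 ± 0.23, SE).

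Pdk1 encodes a pyruvate dehydrogenase kinase, which switches off the enzyme that admits pyruvate to the citric acid cycle (ENSMUSG00000006494, chromosome 2, 71873224 to 71903858, plus strand). It had 136, 145 and 155 CPM under DTA-1, against 123, 99.8 and 126 CPM under the isotype antibody. The gap between the lowest DTA-1 and the highest isotype library was small. The means were 145 ± 9.76 CPM with DTA-1 and 117 ± 14.5 CPM with isotype (SD, n = 3 each), with a log2 fold change of 0.32 ± 0.16 (SE). With library totals in place of TMM it was 0.16, under a scaling that moved the median of all genes to -0.19.

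Bnip3 encodes a mitochondrial outer membrane protein that marks mitochondria for removal by autophagy (ENSMUSG00000078566, chromosome 7, 138890836 to 138909519, minus strand). It had 42.1, 48.1 and 40.5 CPM under DTA-1, against 24.2, 26.7 and 41.4 CPM under the isotype antibody. Isotype replicate 3 reached the DTA-1 level, and the other 2 isotype libraries lay well below it. The means were 43.5 ± 3.99 CPM with DTA-1 and 30.8 ± 9.32 CPM with isotype (SD, n = 3 each), with a log2 fold change of 0.50 ± 0.23 (SE), or 0.80 without isotype replicate 3.

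Egln3 encodes the prolyl hydroxylase PHD3, a HIF target that acts back on HIF (ENSMUSG00000035105, chromosome 12, 54178981 to 54203860, minus strand). It was the steadiest of the 10, at 216, 205 and 203 CPM under DTA-1, against 209, 164 and 178 CPM under the isotype antibody. Its highest library stood 1.32-fold over its lowest, where Car9 spanned 14.6-fold. The log2 fold change was 0.18 ± 0.16 (SE) and 0.02 with library totals.

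Vegfa, the growth factor that makes blood vessels sprout (ENSMUSG00000023951, chromosome 17, 46016993 to 46032369, minus strand), did not separate the groups. It had 86.3, 56.7 and 72.7 CPM under DTA-1, against 119, 62.9 and 31.3 CPM under the isotype antibody. Isotype libraries held both the highest and the lowest value, a 3.80-fold span within 1 group. The means were 71.9 ± 14.8 CPM with DTA-1 and 71.0 ± 44.3 CPM with isotype (SD, n = 3 each), and the log2 fold change was 0.02 ± 0.45 (SE). Its sign turned with the library left out, from -0.31 without isotype replicate 3 to 0.62 without isotype replicate 1, and with library totals it was -0.16.

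Adm encodes adrenomedullin, a peptide that widens vessels and acts on endothelium (ENSMUSG00000030790, chromosome 7, 110627661 to 110629820, plus strand). It had 46.7, 29.5 and 26.1 CPM under DTA-1, against 35.3, 26.5 and 19.3 CPM under the isotype antibody. The highest library was DTA-1 replicate 1 and the lowest isotype replicate 3, with the rest interleaved. The log2 fold change was 0.33 ± 0.30 (SE), and 0.04 without DTA-1 replicate 1.

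Ndrg1, a gene of the N-myc downstream regulated family that hypoxia and differentiation both raise (ENSMUSG00000005125, chromosome 15, 66929318 to 66969640, minus strand), had 122, 60.7 and 74.0 CPM under DTA-1, against 225, 85.7 and 52.6 CPM under the isotype antibody. Isotype replicate 1 alone stood far above the others, 4.28-fold over isotype replicate 3. The log2 fold change was -0.50 ± 0.54 (SE), and leaving out isotype replicate 1 or DTA-1 replicate 1 gave 0.32 or -0.85.

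Ankrd37, an ankyrin repeat gene, was near Car9 in level (ENSMUSG00000050914, chromosome 8, 45996902 to 46005707, minus strand). It had 4.70, 1.27 and 2.48 CPM under DTA-1, against 4.09, 3.62 and 2.16 CPM under the isotype antibody. Its highest and lowest values both fell among the DTA-1 libraries. The log2 fold change was -0.22 ± 0.52 (SE), and leaving out DTA-1 replicate 1 or 2 gave -0.81 or 0.13. Its exons share 349 bases with Lrp2bp and 57 bases with Ufsp2 on the opposite strand, so its count is uncertain without a stated strand setting. Slc2a1, Bnip3 and Ndrg1 also share exon bases with genes on the opposite strand, each of which had at most 13 reads in any library.

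Per kilobase of exon, which allows genes to be compared, the order of levels differed between groups. In DTA-1 libraries Egln3 and Hk2 led, at 78.1 and 77.9 CPM per kilobase, ahead of Slc2a1 (58.2), with Adm (21.1), Bnip3 (19.2), Pdk1 (18.7), Vegfa (16.8), Ndrg1 (13.0), Ankrd37 (1.83) and Car9 (0.473) after them. In isotype libraries Slc2a1 led at 95.0 CPM per kilobase, ahead of Egln3 (69.1), Hk2 (47.7), Ndrg1 (18.4), Adm (16.7), Vegfa (16.6), Pdk1 (14.98), Bnip3 (13.6), Car9 (2.25) and Ankrd37 (2.14). Most neighbours in these orders overlapped over their 3 libraries. The steps that did not overlap were from Ndrg1 to Ankrd37 and from Ankrd37 to Car9 in DTA-1 libraries, and from Egln3 to Hk2, from Hk2 to Ndrg1 and from Bnip3 to Car9 in isotype libraries.

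Library by library, the genes fell into sets that shared high and low samples. Vegfa, Slc2a1, Ndrg1 and Car9 were all highest in isotype replicate 1. Adm, Ankrd37 and Egln3 were all highest in DTA-1 replicate 1, Hk2 and Bnip3 in DTA-1 replicate 2, and Pdk1 in DTA-1 replicate 3. Car9, Slc2a1 and Ankrd37 were lowest in DTA-1 replicate 2, and Vegfa, Ndrg1 and Adm in isotype replicate 3. DTA-1 replicate 1 stood above the isotype mean for every one of the 10 genes except Car9, where it was 1.69 below it on the log2 scale (-1.69).

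**Figure D2:**
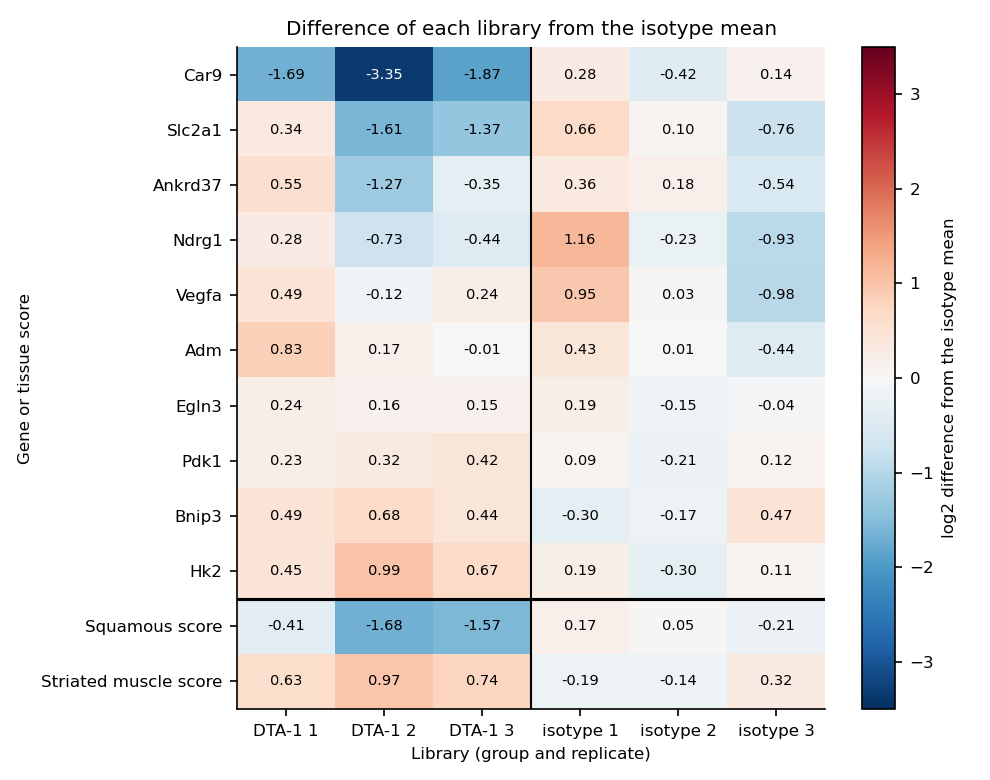
log2 difference of each library from the isotype mean (colour and printed value) for the 10 hypoxia response genes, with the squamous and striated muscle list scores under the line; columns are the 3 DTA-1 and the 3 isotype libraries. Car9 is negative in the 3 DTA-1 libraries, Slc2a1 is low in DTA-1 replicates 2 and 3 like the squamous score, and Hk2 is positive in the 3 DTA-1 libraries like the muscle score.

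Tissue scores were set beside these profiles. The squamous score, the mean log2 CPM of 34 basal and differentiated squamous genes, was 7.60, 6.33 and 6.44 under DTA-1, against 8.18, 8.06 and 7.80 under the isotype antibody. The striated muscle score was 10.4, 10.8 and 10.6 under DTA-1, against 9.63, 9.68 and 10.1 under the isotype antibody. After each profile over the 6 libraries was centred on its mean, Slc2a1 differed from the squamous score by a root mean square of 0.40 and from the muscle score by 1.23 (log2). Bnip3 and Hk2 differed from the muscle score by 0.15 and 0.20, and from the squamous score by 1.04 and 1.12. For comparison, their distances from a flat line were 0.86 for Slc2a1, 0.37 for Bnip3 and 0.42 for Hk2. Car9 was nearer to the squamous score (0.72) than to a flat line (1.29) or the muscle score (1.68). Ankrd37 was nearer to the squamous score (0.52) than to a flat line (0.62). Vegfa, Adm, Pdk1 and Egln3 were nearer to a flat line (0.59, 0.39, 0.20 and 0.14) than to either score, and Ndrg1 was equally far from a flat line and the squamous score (0.70 each). The part of tissue mix in these levels was not tested.

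**Figure D3:**
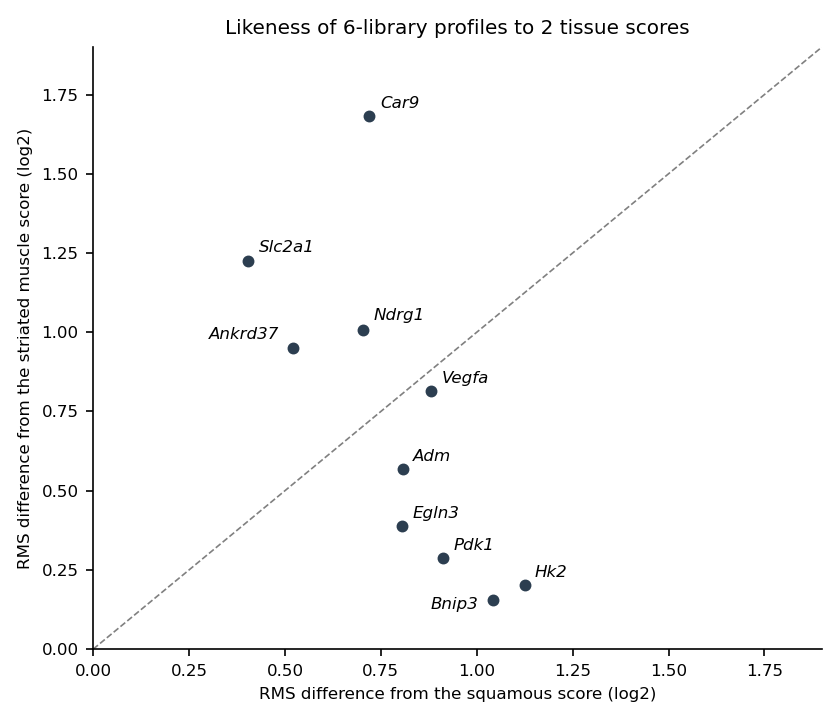
Root mean square difference (log2, over 6 libraries, after centring) of each gene's profile from the squamous score (x axis) and from the striated muscle score (y axis); the dashed line marks equal distance. Slc2a1, Car9, Ankrd37 and Ndrg1 lie on the squamous side (Ndrg1 no nearer to that score than to a flat line). Hk2, Bnip3 and Pdk1 lie farthest to the muscle side, though Pdk1 was nearer to a flat line than to the muscle score.

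Reads of Car9 per 1000 reads of the squamous lists were 0.0462, 0.0406 and 0.111 under DTA-1, against 0.159, 0.0778 and 0.117 under the isotype antibody. By this measure, chosen after the data were seen, the groups overlapped. Slc2a1 gave 11.9, 9.69 and 10.0 reads per 1000 squamous reads under DTA-1, against 12.5, 6.83 and 3.79 under the isotype antibody, so its groups overlapped too. Hk2 gave 2.49, 2.57 and 2.81 reads per 1000 striated muscle reads under DTA-1, against 3.60, 3.42 and 2.08 under the isotype antibody, again with overlap. These scales move most genes: per squamous read 54.8% of all tested genes lay wholly above in DTA-1 libraries and 0.0317% wholly below, and per striated muscle read 0.102% lay wholly above and 33.5% wholly below. Of the 10 genes, 6 lay wholly above and none below per squamous read, and 1 (Car9) lay wholly below and none above per muscle read, from which nothing is read.

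The 5 tested genes with profiles nearest to that of Car9 over the 6 libraries were Klk6 (a kallikrein-related peptidase), Ces2b (a carboxylesterase) and the late cornified envelope genes Lce3f, Lce3c and Lce3d. Their root mean square differences from Car9 were 0.38, 0.44, 0.48, 0.49 and 0.49 (log2). Klk6 had 13.6, 3.96 and 14.6 CPM under DTA-1, against 45.5, 21.7 and 26.3 CPM under the isotype antibody. Like Car9, it was lowest in DTA-1 replicate 2 and highest in isotype replicate 1. These genes were picked for their likeness to Car9 over the same libraries, so nothing is read from such shared values. Of the other 9 hypoxia response genes the nearest was Slc2a1, at 0.97, and the farthest Hk2, at 1.65. Late cornified envelope genes have near-identical copies, so their counts are uncertain.

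The regulators of HIF gave no call. Of 15 tested, none passed edgeR, 1 (Cul2, 6.67%) had an unadjusted p under 0.05, beside 12.7% of all genes, and 5 (33.3%) had negative fold changes, beside 52.9%. The median was 0.16, against -0.03 over all genes, and DESeq2 called none of them over all libraries. Hif1a, the oxygen-sensitive subunit, had 324, 148 and 148 CPM under DTA-1, against 415, 280.0 and 223 CPM under the isotype antibody. As with Slc2a1, DTA-1 replicate 1 lay in the isotype range and DTA-1 replicates 2 and 3 lay below it. The log2 fold change of Hif1a was -0.57 ± 0.39 (SE), with an adjusted p of 0.516 in edgeR; without DTA-1 replicate 1, DESeq2 called it lower (-1.01, adjusted p of 0.016) and edgeR did not. Epas1, the HIF-2 alpha subunit best known from endothelium, averaged 179.6 ± 35.9 CPM with DTA-1 and 144 ± 39.2 CPM with isotype (SD, n = 3 each), with a log2 fold change of 0.32 ± 0.26 and an adjusted p of 0.574 in edgeR. Hif3a was scarce in every library, at 1.16 to 2.09 CPM with DTA-1 and 0.663 to 3.32 CPM with isotype. The partner Arnt had a log2 fold change of 0.16 ± 0.16 (SE) and overlapped between groups.

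The oxygen-sensing enzymes were abundant and overlapped between groups. Egln1, the main prolyl hydroxylase, had 342, 355 and 276 CPM under DTA-1, against 220.1, 224 and 342 CPM under the isotype antibody. Egln2 and Hif1an, which encode a second prolyl hydroxylase and the asparaginyl hydroxylase FIH, had log2 fold changes of 0.28 ± 0.20 and 0.43 ± 0.22 (SE), with adjusted p of 0.535 and 0.427 in edgeR. Vhl had 23.4, 16.8 and 16.1 CPM under DTA-1, against 21.97, 23.4 and 23.3 CPM under the isotype antibody, with a log2 fold change of -0.29 ± 0.20 (SE). Of the 4 further parts of the VHL ligase in the list, chosen after their values were seen, Cul2, Rbx1 and Eloc had all DTA-1 libraries over all isotype ones, with log2 fold changes of 0.33 ± 0.14, 0.33 ± 0.14 and 0.26 ± 0.15 (SE). Their adjusted p in edgeR was 0.391, 0.397 and 0.445, so none passed. Elob, the other elongin, overlapped, at 65.9, 66.9 and 73.7 CPM under DTA-1, against 75.7, 57.1 and 60.3 CPM under the isotype antibody. Wholly above were 3 of the 15 regulators and wholly below none, beside 8.6% and 9.38% of all genes.

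**Figure D4:**
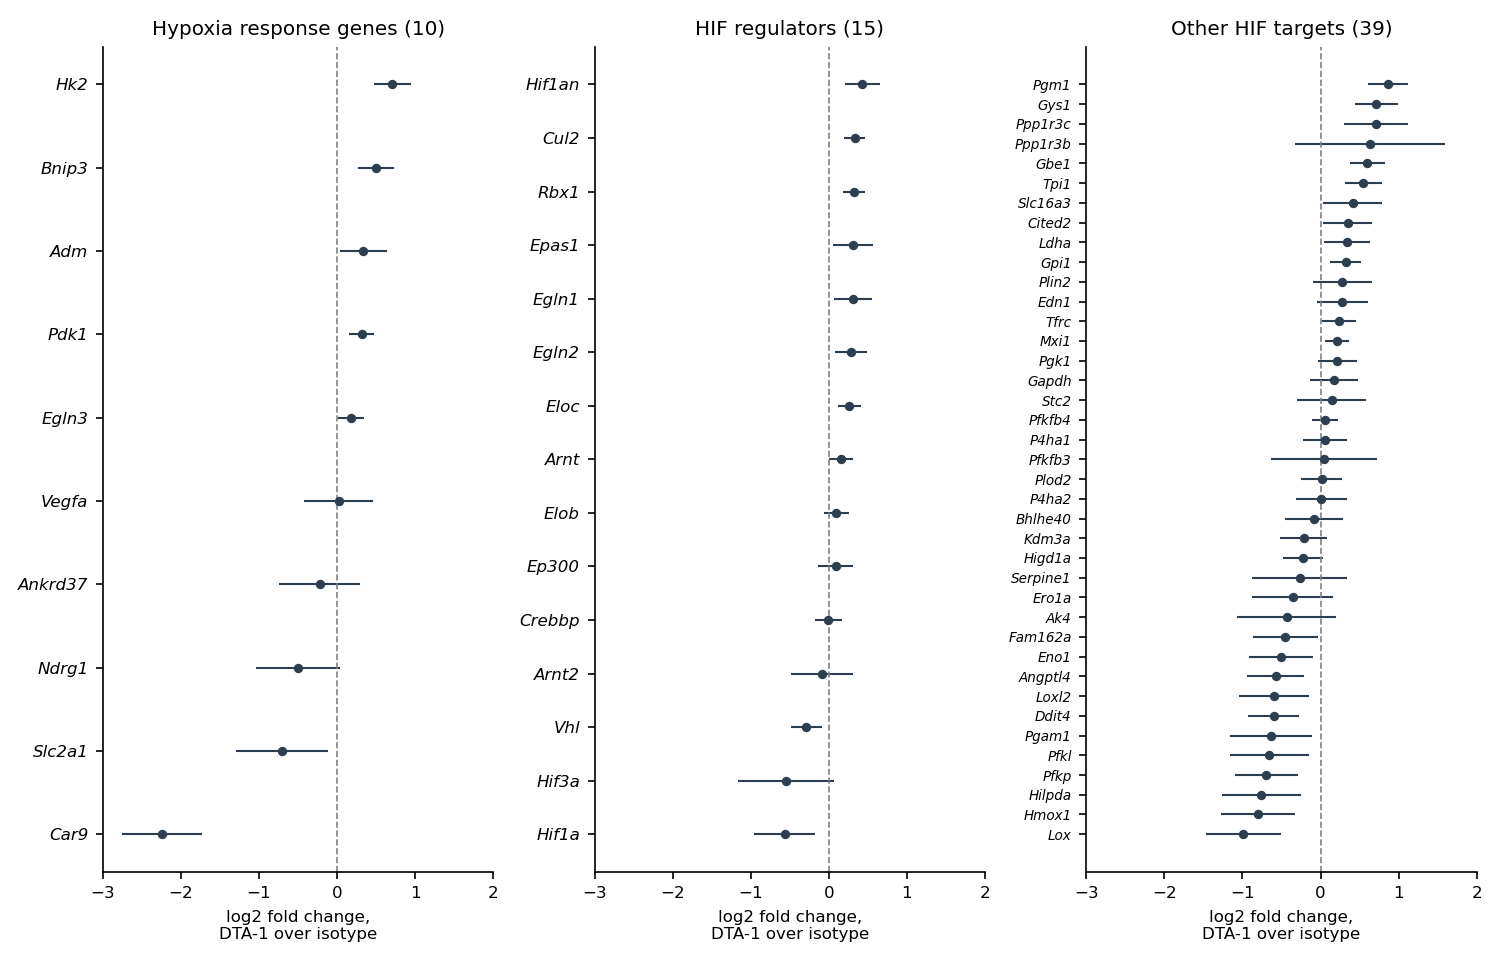
log2 fold change of DTA-1 over isotype (x axis; bars are SE) for the 10 hypoxia response genes, 15 HIF regulators and 39 other HIF targets, each sorted from high to low; the dashed line is 0. Both wider lists straddle 0, and Car9 at -2.24 lies below the lowest value of either list, which is -0.99 for Lox.

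A wider list of other HIF targets spread to both sides of 0. Of 39 tested, 22 had positive and 17 negative fold changes, with a median of 0.04 against -0.03 over all genes. None passed edgeR or DESeq2 over all libraries, while DESeq2 called 7 without DTA-1 replicate 1 (3 higher and 4 lower) and 2 without isotype replicate 3. Over all genes those 2 refits called 2449 and 896, so the calls are not read as particular to this list. Over all libraries 3 (7.69%) had an unadjusted p under 0.05 in edgeR, beside 12.7% of all genes. The DTA-1 libraries all stood over the isotype ones for 3 of the 39 and under them for none, beside 8.6% and 9.38% of all genes.

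The 5 with the smallest p on the higher side were Pgm1, Gbe1, Gys1, Tpi1 and Ppp1r3c, of which Pgm1, Gbe1, Gys1 and Ppp1r3c serve glycogen storage or its regulation and Tpi1 is a glycolytic enzyme. Pgm1, phosphoglucomutase, had 207, 351 and 286 CPM under DTA-1, against 165, 120.5 and 179.6 CPM under the isotype antibody. Gys1, the muscle glycogen synthase, had 481, 709 and 580.1 CPM with DTA-1, against 311, 285 and 481 CPM with isotype, where isotype replicate 3 just passed the lowest DTA-1 library. The branching enzyme gene Gbe1 and the glycogen-targeting subunit gene Ppp1r3c had log2 fold changes of 0.60 ± 0.23 and 0.71 ± 0.41 (SE). The adjusted p in edgeR was 0.39 for Pgm1, Gbe1 and Gys1, 0.397 for Tpi1 and 0.454 for Ppp1r3c. These are genes of high level in muscle, and the striated muscle list took more counts in every DTA-1 library; its part in their levels was not tested.

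On the lower side, the 5 of smallest p were Lox, Ddit4, Pfkp, Hmox1 and Angptl4. Lox, which cross-links collagen, had 15.5, 11.9 and 10.5 CPM under DTA-1, against 45.0, 12.3 and 18.0 CPM under the isotype antibody, with isotype replicate 1 far above the rest. Ddit4, a stress-induced inhibitor of mTOR signaling, had 104, 64.3 and 40.9 CPM with DTA-1, against 96.2, 104 and 118 CPM with isotype. Hmox1, which breaks down heme, had 83.7, 21.8 and 34.5 CPM with DTA-1, against 73.6, 102 and 67.5 CPM with isotype. In Ddit4 and Hmox1, DTA-1 replicates 2 and 3 lay below the isotype libraries and DTA-1 replicate 1 among them. The phosphofructokinase gene Pfkp and the lipase inhibitor gene Angptl4 had log2 fold changes of -0.69 ± 0.41 and -0.58 ± 0.37 (SE). The adjusted p in edgeR of these 5 genes lay between 0.409 and 0.494.

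Glycolytic enzyme genes in the list were not uniform. Ldha, the lactate-forming dehydrogenase, had 1006, 1236 and 1228 CPM under DTA-1, against 1272, 745 and 731 CPM under the isotype antibody, with a log2 fold change of 0.34 ± 0.29 (SE). Slc16a3, the lactate exporter MCT4, had a log2 fold change of 0.41 ± 0.38 (SE). The liver-type and platelet-type phosphofructokinase genes Pfkl and Pfkp had negative fold changes, and Tpi1 and Gpi1 had all DTA-1 libraries over all isotype ones. Gapdh, Pgk1 and Pgam1 had at most 6.39, 17.9 and 13.6 CPM in any library; such genes have many near-identical pseudogene copies, and their counts are uncertain.

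Relatives of the 10 genes were set beside them to compare isoforms; those named were picked with their values known, and none was called over all libraries by edgeR or DESeq2. Hk1, the general hexokinase, had 102, 60.0 and 77.3 CPM under DTA-1, against 118, 157 and 114 CPM under the isotype antibody. The DTA-1 libraries were all under the isotype ones for Hk1, at a log2 fold change of -0.70 ± 0.24 (SE); its adjusted p in edgeR was 0.39, and DESeq2 called it without DTA-1 replicate 1 (0.00838). Per kilobase of exon, the level of Hk2 over Hk1 was 5.38, 13.4 and 8.30 under DTA-1, against 3.89, 2.08 and 3.81 under isotype. With Hk2 wholly above and Hk1 wholly below in DTA-1 libraries, this ratio could not overlap, so nothing is read from its separation. The ratios of Ndrg1 over Ndrg2 and of Vegfa over Vegfd overlapped.

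The glucose transporter ratio overlapped. The level of Slc2a1 over that of Slc2a4, which encodes the insulin-responsive GLUT4 of muscle and fat, was 1.24, 0.167 and 0.233 under DTA-1, against 2.49, 1.27 and 0.397 under the isotype antibody. Slc2a4 had 312, 601 and 509 CPM with DTA-1, against 194, 259 and 454 CPM with isotype, and an adjusted p of 0.463 in edgeR; DESeq2 called it without isotype replicate 3 (0.0499).

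**Figure D5:**
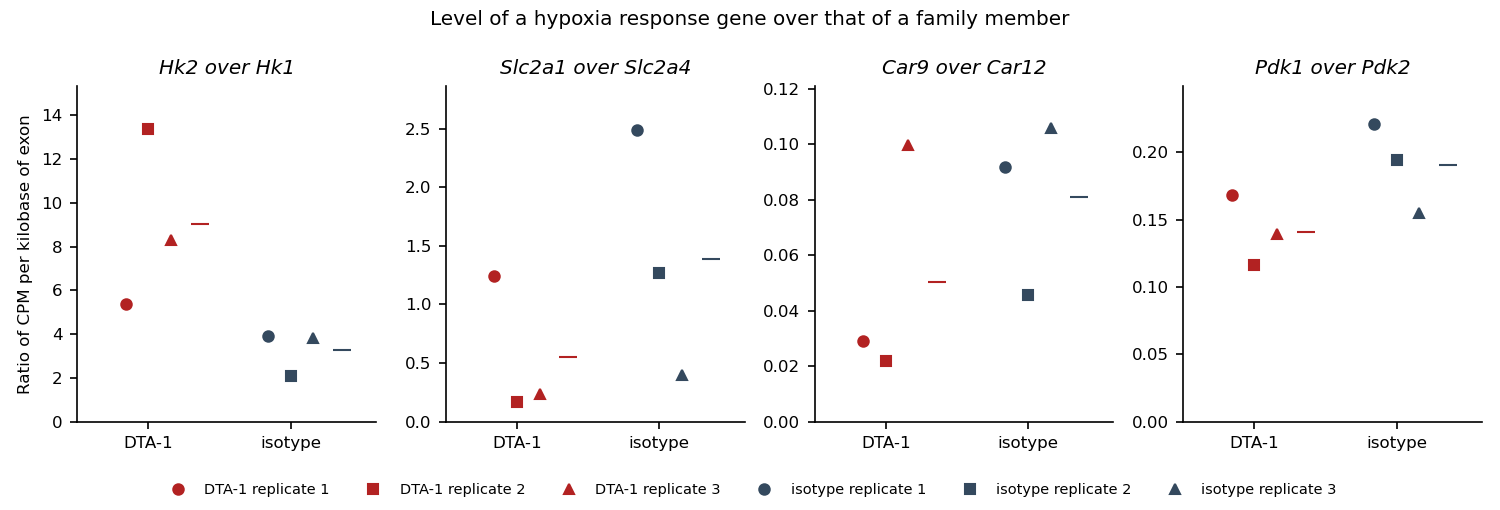
Ratio of CPM per kilobase of exon (y axis, linear, from 0) of Hk2 over Hk1, Slc2a1 over Slc2a4, Car9 over Car12 and Pdk1 over Pdk2 in the 3 DTA-1 and 3 isotype libraries; points are libraries and the short line is the group mean. Hk2 over Hk1 is above 5 in the DTA-1 libraries and below 4 in the isotype libraries. This follows from Hk2 lying wholly above and Hk1 wholly below in DTA-1 libraries. The other 3 ratios overlap between groups.

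Car9 was a minor carbonic anhydrase here. Car12, the other membrane-bound tumor-associated form, had 173, 64.1 and 43.9 CPM under DTA-1, against 223, 274 and 174 CPM under the isotype antibody, nearly touching but without overlap. Its log2 fold change was -1.26 ± 0.50 (SE), with an adjusted p of 0.39 in edgeR over all libraries and 0.0373 without DTA-1 replicate 1. Cytosolic Car13 and Car2 had log2 fold changes of -1.05 ± 0.48 and -1.05 ± 0.57 (SE), and Car13 had an adjusted p of 0.401, or 0.0376 without DTA-1 replicate 1. Car3, the form of muscle and fat, was the most abundant, at 782, 2055 and 2043 CPM under DTA-1, against 817, 537 and 773 CPM under the isotype antibody. Its log2 fold change was 1.20 ± 0.42 (SE), with an adjusted p of 0.39 in edgeR, or 0.05 (just under the threshold) without DTA-1 replicate 1. In DESeq2 without that library Car2, Car3, Car8, Car12 and Car13 were called, Car8 higher at a log2 fold change of 1.52. Without that library DESeq2 called 2449 of all genes and edgeR 601, so these calls are not read as particular to the family. Over all libraries 4 of the 8 tested relatives of Car9 had negative fold changes. DTA-1 replicate 3 had the highest adipocyte score (7.34, against 5.37 and 5.18 in DTA-1 replicates 1 and 2 and 3.52 to 6.01 in isotype libraries), and its part in the Car3 level was not tested. The level of Car9 over that of Car12 was 0.0290, 0.0218 and 0.0997 with DTA-1, against 0.0917, 0.0455 and 0.106 with isotype.

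Of the 7 partners of Pdk1 on pyruvate dehydrogenase, 5 had positive fold changes, 4 had an unadjusted p under 0.05 in edgeR (57.1%, beside 12.7% of all genes), and none passed. Pdk2, a kinase of the same family, had 328, 506 and 454 CPM under DTA-1, against 227, 209 and 332 CPM under the isotype antibody. Pdp1, the phosphatase that switches the enzyme back on, had 50.4, 77.5 and 63.4 CPM under DTA-1, against 37.3, 32.6 and 46.2 CPM under the isotype antibody, without overlap. Pdk3, another of the kinases, lay lower in every DTA-1 library, at 18.5, 11.3 and 16.6 CPM, against 21.4, 28.8 and 25.6 CPM in isotype libraries. The adjusted p in edgeR was 0.39 for all of Pdk2, Pdp1 and Pdk3. DESeq2 called Pdk2, Pdk3, Pdhb and Pdp1 without DTA-1 replicate 1, at adjusted p of 0.0134, 0.0367, 0.00461 and 0.00838, and Pdk2, Pdha1 and Pdp1 without isotype replicate 3, at 0.0167, 0.0209 and 0.0442. The same refits called 2449 and 896 of all genes, and nothing about these partners as a set is read from the calls. Pdk4, the fasting-induced kinase, ranged from 143 to 1549 CPM within DTA-1 libraries and from 224 to 726 CPM within isotype libraries.

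No ligand or receptor around Vegfa and Adm was called by edgeR, or by DESeq2 over all libraries. Without DTA-1 replicate 1 DESeq2 called Vegfb, Vegfd, Kdr and Ramp1 higher, at adjusted p of 0.0183, 0.00838, 0.0137 and 0.0287. That refit called 2449 of all genes, so these calls are not read as particular to vessel genes. Of 9 VEGF family ligands and receptors 2 (22.2%) had a negative fold change, Pgf at -0.27 and Nrp2 at -0.08, beside 52.9% of all genes; the median over the 9 was 0.35. Of 5 relatives of Adm 2 were negative, Adm2 at -1.43 and Ramp3 at -0.30. Vegfd, a lymphatic growth factor, had 36.4, 117 and 47.5 CPM under DTA-1, against 23.0, 32.1 and 34.2 CPM under the isotype antibody (log2 fold change 1.17 ± 0.44, SE; adjusted p of 0.39 in edgeR). Kdr, the main VEGF receptor of endothelium, had 15.9, 27.0 and 29.5 CPM with DTA-1, against 15.1, 19.6 and 13.2 CPM with isotype. Calcrl, the adrenomedullin receptor, had 32.3, 44.6 and 32.7 CPM with DTA-1, against 24.3, 28.9 and 28.7 CPM with isotype, and its partner Ramp2 overlapped. The 11 endothelial markers took 0.0235% to 0.0373% of counts under DTA-1, against 0.0240% to 0.0286% under the isotype antibody; their part in these levels was not tested.

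Among the remaining relatives, Ndrg2 was far more abundant than Ndrg1, at 1709, 2631 and 2307 CPM under DTA-1, against 1246, 1049 and 1696 CPM under the isotype antibody, with an adjusted p of 0.391 in edgeR. DESeq2 called Ndrg2 when DTA-1 replicate 1 (0.0139) or isotype replicate 3 (0.0225) was left out. Bnip3l, the close relative of Bnip3 in removal of mitochondria, had 84.7, 59.3 and 58.7 CPM with DTA-1, against 82.2, 79.1 and 72.5 CPM with isotype. Its log2 fold change of -0.21 ± 0.19 (SE) had an adjusted p of 0.61 in edgeR, so a difference was not shown.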

How the data were processed

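PolyA RNA of 6 esophagus libraries was counted per Ensembl gene, and the authors deposited whole-number read counts without normalization. The tools named, per the submitters' processing notes, were STAR, HTSeq 0.6.1p1, cutadapt 1.13 and DESeq2 1.14.1, with build mm10. Their roles and the strand setting are not given in the sources.

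In R 4.3.3, edgeR 4.0.16 kept genes by filterByExpr (default minimum count 10, minimum total 15), set TMM factors and fitted treatment alone with its robust quasi-likelihood F-test. Benjamini-Hochberg adjustment at 0.05 ran over every gene kept. Limma 3.58.1 (voom) and DESeq2 1.42.0 served as alternatives. Log2 profiles used a prior count of 2. Levels per length used exon unions of GENCODE M21. Totals of 23147873 to 29065162 counts set the floor of 3 reads, and floors cover counting error only. Replicate pairs differed by more than sampling noise (median chi-square per gene at least 5.75, against 0.455 for noise alone). Because the labels name no separate animals, p-values describe variation among these samples only, some of it perhaps technical.

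The 10 genes and all lists were chosen with earlier results of these data known. Named genes were the 10, 8 HIF regulators, the 5 other targets with the smallest p in each direction, a selection of relatives that passed the filter, made with their values known, and the 6 profiles nearest to Car9 with a mean log2 CPM of at least 0, of which the sixth is not reported here; Cul2, Rbx1, Eloc, Elob, Ldha, Slc16a3, Pfkl, Gpi1, Gapdh, Pgk1 and Pgam1 were named after their values were seen. Of 40 other targets listed 39 were matched to 1 ID; Aldoa, whose symbol 2 IDs share, was left out. Alternatives covered scaling, filters, tool, covariates, the replicate block and each library left out. Ratios within a library and the refits of DESeq2 were added after the data were seen.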

Additional observations from a re-analysis of the deposited data

How the results depend on the processing

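The number of all genes called was 0 in edgeR with every library, scaling, filter, covariate and the replicate block, and 0 in limma-voom. DESeq2 called 180. Leaving out each library in turn gave edgeR and DESeq2 together 0 to 2449 genes; edgeR reached 601 without DTA-1 replicate 1, and DESeq2 gave 2449 without DTA-1 replicate 1, 896 without isotype replicate 3, 180 without isotype replicate 1, 56 without isotype replicate 2 and 41 without either DTA-1 replicate 2 or DTA-1 replicate 3. Of the 39 other HIF targets, the same refits called 0 to 7, the 7 in DESeq2 without DTA-1 replicate 1 (Pgm1, Gys1 and Gbe1 higher, Hmox1, Ddit4, Angptl4 and Ero1a lower) and 2 without isotype replicate 3 (Pgm1 and Gys1), and of the HIF regulators 0 to 1, which was Hif1a, lower without DTA-1 replicate 1 (adjusted p = 0.016 in DESeq2). The cause was not tested.

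With the striated muscle score as covariate, 2 of the 10 genes had a negative fold change (Car9 at -1.59 and Bnip3 at -0.42), Vegfa stood at 2.35, Ndrg1 at 2.08, Ankrd37 at 1.76, Slc2a1 at 1.74 and Adm at 1.51, and the median of the other targets was 0.61. With the squamous score it was 1 of 10, Car9 at -1.48, and Slc2a1 stood at 1.11. Neither score overlapped between the groups, so score and treatment cannot be told apart in these fits. Over 23 alternatives the fold changes of Car9, Hk2, Pdk1, Egln3 and Adm kept their sign. The lowest values were near 0 for Egln3 (0.02) and Adm (0.04), and 0.10 for Pdk1. Slc2a1 kept its sign in 21 of 23, Bnip3 in 22, Ndrg1 and Ankrd37 in 19 and Vegfa in 16. The alternatives refit the same libraries, and genes whose groups do not overlap have little room to change sign. These counts are therefore a description only. Car9 ranged from -2.55 to -1.48 and Hk2 from 0.23 to 0.86.

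Pairing by replicate number was not seen, as deviations of same-numbered libraries correlated at 0.0167, -0.333 and -0.0864. The largest correlation, 0.364, was between DTA-1 replicate 3 and isotype replicate 2. With 3 libraries in each group, such values cannot exclude a pairing or a batch. The replicate block gave edgeR 0 calls and DESeq2 242. Depth limits Car9 most in DTA-1 replicate 2, where it had 9 reads.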

Other observations

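Markers of other cell types were summed in each library beside the muscle and squamous lists. Neutrophil markers took 0.083% to 0.32% of counts in DTA-1 libraries, against 0.353% to 0.55% in isotype libraries, with no overlap. Nearly all of this sum came from the calprotectin genes S100a8 and S100a9, which squamous epithelium also expresses. In DTA-1 replicate 1 they had 1223 and 2085 CPM, out of 3312 CPM for the list. Of the other markers, Csf3r and Retnlg overlapped between groups, and Ly6g and Mpo did not pass the filter. Cxcr2 was lower in every DTA-1 library, but had at most 9.91 CPM in any library. All 5 tested neutrophil markers had negative fold changes. The mean log2 CPM of the list did not overlap either, at 3.64 to 4.61 with DTA-1, against 4.69 to 6.13 with isotype. Both the sum and the mean include S100a8 and S100a9, so neither separation is read as fewer neutrophils, which was not tested. Macrophage markers took 0.0228% to 0.123% with DTA-1, against 0.02% to 0.119% with isotype. In DTA-1 replicate 2, the highest library, Lyz2 alone had 1173 CPM, out of 1381 CPM for the list. Of the 9 macrophage markers 8 had negative fold changes, Lyz2 being the exception, and all overlapped between groups. Smooth muscle markers varied widely within both groups, at 0.148% to 0.932% with DTA-1 and 0.123% to 0.973% with isotype. Isotype replicate 1, the library with the highest Car9, Slc2a1, Vegfa and Ndrg1, had the lowest smooth muscle share. It also had the highest fibroblast share (0.348%). There the collagen genes Col1a1, Col1a2 and Col3a1 had 558, 603 and 1122 CPM, out of 3238 CPM for the list. Of the other fibroblast markers, Fbln1 was highest in that library too. Pdgfra was lowest there, and Dcn, Lum and Dpt were highest in DTA-1 replicate 3. The part of the smooth muscle or fibroblast share in the gene levels was not tested. Red cell markers took 0.259% of counts in DTA-1 replicate 2 and at most 0.0197% in any other library. DTA-1 replicate 2 was also the library with the lowest Car9, Slc2a1 and Ankrd37 and the highest Hk2 and Bnip3. Its striated muscle share (19.6%) was the highest of the 6 libraries. Its basal (0.361%) and differentiated (0.571%) squamous shares were the lowest. The part of any of these in the gene levels was not tested.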
